A study of Homo sapiens with 20 samples.

Results

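Long noncoding RNAs (lncRNAs) are transcripts that carry out roles as RNA without being translated, and many of them are held in either the nucleus or the cytosol. The 8 lncRNAs described here were chosen by name among well-known members of both kinds: 3 nuclear RNAs (MALAT1, NEAT1 and KCNQ1OT1), 1 RNA found in both compartments (TUG1) and 4 mainly cytosolic RNAs (OIP5-AS1, NORAD, H19 and CYTOR). These places are textbook knowledge, since no compartment was separated in the libraries. Their values were taken from a table of FUBP1 RNA immunoprecipitation sequencing (RIP-seq) and from 3 tables of skipped exon events. All 8 RNAs had a row among the 28278 genes of the RIP table. Only TUG1, CYTOR and OIP5-AS1 had skipped exon events, 15 of the 59847 events in the 3 tables, and these 15 events fell on 5 different exons.

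All 20 samples were HepG2 cells, a line from a human liver cancer, in 8 groups. Poly(A) RNA was sequenced from cells harvested 48 h after transfection with siFUBP1, an siRNA that targets FUBP1, or with the control siRNA siCtrl2, and from cells harvested 72 h after an antisense oligonucleotide (ASO) to U3 or, as the control, to GFP, with 3 libraries per group. For cells given siFBL, which targets FBL, or its control siCtrl, FUBP1 RIP libraries and input libraries were made at 48 h, with 2 libraries in each of those 4 groups. Each depletion rested on a single siRNA or ASO, each had its own control, and siCtrl and siCtrl2 were different reagents. FUBP1 is a nuclear RNA-binding protein and splicing factor that prefers U-rich RNA. FBL (fibrillarin) is the enzyme that places 2′-O-methyl groups on RNA, guided by box C/D small nucleolar RNAs, and U3 is a small nucleolar RNA of that class that works in ribosomal RNA processing. The comparisons ask whether losing each of them changes splicing, and whether losing FBL changes the RNAs that go with FUBP1.

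The libraries held 2693397 to 4474350 junction reads in the siFUBP1 table, 11249641 to 13321799 in the U3 table and 910779 to 1142189 in the input table of siFBL. Amounts of RNA are given in RPM, the junction reads of a gene's listed events per 1000000 junction reads of the library. FUBP1 itself had 45.2, 56.1 and 50.3 RPM in the siCtrl2 libraries and 8.42, 10.1 and 4.08 in the siFUBP1 libraries, so its mean was at 14.9% of the control. The FUBP1 mean was also lower after U3 depletion, at 41.5 RPM in U3 ASO beside 59.9 in GFP ASO. In the RIP table, FUBP1 had mean normalized counts of 14257 in siCtrl and 8689 in siFBL. That is a ratio of 0.609, beside 0.863 for the median gene. The part of these FUBP1 changes in the results below was not tested. FBL had no skipped exon event, and its mean normalized count in the RIP table was 1034 in siCtrl and 164 in siFBL. U3 was not measured in the junction tables. Of 8 liver genes listed as markers of these cells, 7 had events, with means from 46.6 RPM for SERPINA1 to 94020 RPM for APOB over the groups. The leukocyte gene PTPRC and the fibroblast gene COL1A1 had no event, and the endothelial gene PECAM1 had 0 to 0.834 RPM, in the U3 table only. In the RIP table these 3 genes had mean normalized counts of 8.01, 33.2 and 64.8 in siCtrl and 3.38, 23.6 and 51.4 in siFBL, where the listed liver genes had 3316 or more.

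The nuclear RNAs work where they are made. MALAT1 lies in nuclear speckles, the storage sites of splicing factors. NEAT1 is the scaffold of paraspeckles, bodies built with NONO and SFPQ. KCNQ1OT1 is transcribed from the paternal copy of an imprinted locus and silences its neighbours in cis. Among the others, TUG1 has been linked to chromatin regulation, NORAD is an abundant RNA that binds proteins in the cytosol, OIP5-AS1 binds the RNA-stabilizing protein HuR (ELAVL1), H19 is an imprinted RNA that is also the precursor of the microRNA miR-675, and CYTOR is a cytosolic RNA first described in growing tumour cells.

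On hg38, MALAT1 lies at chr11:65497640-65508073, NEAT1 at chr11:65422774-65445540, KCNQ1OT1 at chr11:2597308-2700003 and H19 at chr11:1995166-2004552. NORAD is annotated at chr20:36045618-36051018 with 1 transcript of 1 exon, and the canonical transcripts of MALAT1 and NEAT1 also have 1 exon. Of all annotated transcripts, 1 of 66 of MALAT1, 1 of 9 of NEAT1 and 1 of 14 of KCNQ1OT1 have a single exon. Such counts describe the annotation and do not show which form the cells made. H19 has 31 transcripts, none of them with a single exon. TUG1 (chr22:30969245-30979395), OIP5-AS1 (chr15:41283958-41322392) and CYTOR (chr2:87454781-87636740) have 20, 72 and 39 annotated transcripts, also none with a single exon. Nuclear RNAs contributed 0 events from 3 genes, and cytosolic RNAs contributed events from 2 of 4 genes.

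The TUG1 and CYTOR exons with the most reads are shown here because the splicing results rest on them. The TUG1 exon of 125 bases, chr22:30972048-30972172 on the plus strand, is part of 4 of its 20 transcripts and not of the canonical one. It is printed from hg38 with 20 intron bases before it and 6 after it, and the capitals mark the AG and GT of the splice sites.
TUG1: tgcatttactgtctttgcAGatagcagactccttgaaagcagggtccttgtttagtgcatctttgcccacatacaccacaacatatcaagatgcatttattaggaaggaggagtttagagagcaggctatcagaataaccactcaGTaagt

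The CYTOR exon of 201 bases, chr2:87480223-87480423 on the plus strand, is part of 2 of its 39 transcripts. MIR4435-2HG, a lncRNA gene on the same chromosome, holds a near-identical copy of it at chr2:111469787-111469987 on the minus strand, and capitals mark the 3 bases at which the copies differ.
CYTOR: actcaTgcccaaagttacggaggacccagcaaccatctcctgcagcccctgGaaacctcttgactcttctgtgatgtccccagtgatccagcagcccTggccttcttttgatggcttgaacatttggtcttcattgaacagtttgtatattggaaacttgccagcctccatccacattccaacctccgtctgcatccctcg

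Another 2 CYTOR exons with events, chr2:87470150-87470304 of 155 bases and chr2:87478122-87478230 of 109 bases, differed from MIR4435-2HG at 3 bases and 1 base. How reads with equally good places were assigned is not given in the sources used here, so every CYTOR value below may hold reads of MIR4435-2HG or lack reads that went to it.

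The OIP5-AS1 exon of 183 bases, chr15:41297747-41297929 on the plus strand, is part of 2 of its 72 transcripts.

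Because FUBP1 prefers U-rich RNA, the T content of the 50 bases before each exon was counted in the DNA. It was 36% for TUG1, 40% for the 201-base CYTOR exon and 26% for OIP5-AS1, against a median of 38% over 31955 different exons of the 3 tables. The other CYTOR exons had 48% and 32%. These windows thus lay on both sides of the median exon.

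Exon inclusion after FUBP1 depletion was compared first. The inclusion level is the share of RNA that keeps the exon, from 0 to 1, computed from junction reads scaled by the effective length of each form. Where an event averaged 10 or more junction reads in a library, it entered a quasi-binomial F test, and it was called at a Benjamini-Hochberg adjusted p under 0.1. The test compared the share of inclusion reads pooled over the libraries of each group, not the means of the levels printed beside it. Of all 16213 events tested, 0.197% were called, 4.55% had an unadjusted p under 0.05 and 5.05% had groups that did not overlap. The lncRNAs had 4 tested events, and 0 of them met any of these 3 criteria. Their median change (siFUBP1 minus siCtrl2) was -0.0532, beside -0.00139 over all events. For this and the other tests, p-values set the difference between groups against the spread between libraries, moderated over all events or genes.

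TUG1 kept its 125-base exon in few transcripts. The event with the most reads, in which the upstream exon ends at position 30971779 and the downstream exon starts at 30972855, had inclusion levels of 0.0952, 0.0339 and 0.243 in siCtrl2 and 0.0427, 0.0442 and 0.0698 in siFUBP1. The siFUBP1 values lay within the range of the controls, with 3 siFUBP1 libraries below the higher 2 controls. The means were 0.124 ± 0.108 and 0.0522 ± 0.0152 (SD, n = 3), and the quasi-binomial test over all events gave an adjusted p of 0.812. A shorter form of the downstream exon, starting at 30972924, averaged a level of 0.143 ± 0.128 with siCtrl2 and of 0.405 ± 0.527 with siFUBP1 (SD, n = 3). That event rested on 63 and 23 junction reads in all, and its siFUBP1 levels ran from 0 to 1.

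CYTOR skipped its 201-base exon in most transcripts as well. The levels were 0.194, 0.0968 and 0.280 in siCtrl2 and 0.0687, 0.100 and 0.167 in siFUBP1. The groups overlapped, although 2 controls were higher than every siFUBP1 library. The means were 0.190 ± 0.0917 and 0.112 ± 0.0500 (SD, n = 3), and the event was not called, with a quasi-binomial adjusted p of 0.812.

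OIP5-AS1 had few inclusion reads at its 183-base exon. In siCtrl2, 0, 0 and 3 inclusion reads were found, and in siFUBP1 0, 0 and 0. The group total in siFUBP1 was 0 of 93 junction reads, which allows a share of up to 3.23% of reads, covering counting error only. The siCtrl2 total was 3 of 85 reads, all in 1 library, and the quasi-binomial adjusted p was 0.812.

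**Figure D1:**
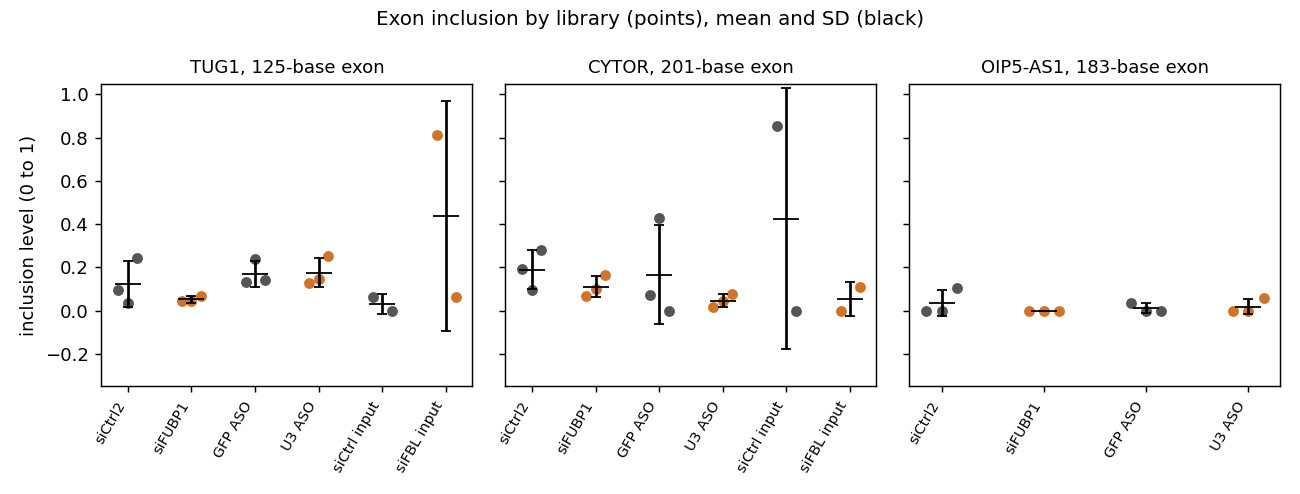
Inclusion level, from 0 to 1, of the exon with the most reads in TUG1, CYTOR and OIP5-AS1; each point is a library (grey, control; orange, depletion), and black lines give mean ± SD of 3 libraries, or of 2 for the input groups, with SD bars that can run below 0. In no comparison do the points of the 2 groups separate, and the widest spreads are in the siCtrl input and siFBL input groups.

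After U3 depletion, the lncRNAs had 6 tested events, and again 0 of them were called, had an unadjusted p under 0.05 or had groups that did not overlap. Over all 30110 events these shares were 0.226%, 4.18% and 6.03%. The median change (U3 ASO minus GFP ASO) was 0.00560 for the lncRNA events and -0.00355 for all events. The libraries of this comparison were the deepest, and the main TUG1 event had 91 to 185 junction reads in each of them.

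In TUG1, that event had levels of 0.131, 0.241 and 0.140 in GFP ASO and 0.126, 0.149 and 0.254 in U3 ASO. The groups overlapped almost fully, with means of 0.171 ± 0.0610 and 0.177 ± 0.0683 (SD, n = 3) and a quasi-binomial adjusted p of 0.997. Another event paired the same exon with an upstream exon that ended early, at 30969386. The levels computed for this event were 1, 1 and 1 in GFP ASO and 1, 1 and 0.873 in U3 ASO. Skipping reads numbered 0 of 57 in GFP ASO, which allows up to 5.26% of reads, and 3 of 74 in U3 ASO. Both events can count the junction from the exon to the downstream exon, so their inclusion reads are not independent. In the third GFP ASO library both events had 21 inclusion reads, whereas the event with the downstream start at 30972924 had 0. The higher levels with the early upstream end can thus come from shared reads beside few skipping reads. Whether the exon is kept more often with that upstream exon was not tested. With the downstream exon starting at 30972924, the level averaged 0.254 ± 0.230 for GFP ASO and 0.266 ± 0.0814 for U3 ASO libraries (SD, n = 3).

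For the CYTOR 201-base exon, levels were 0.0714, 0.429 and 0 in GFP ASO and 0.0166, 0.0462 and 0.0769 in U3 ASO. A single control library, with 18 of the 20 inclusion reads of its group, was far above the rest. The means were 0.167 ± 0.230 and 0.0466 ± 0.0302 (SD, n = 3), with a quasi-binomial adjusted p of 0.844, and without that library the change was 0.0108 in the other direction. The 155-base exon between the same neighbours had 0 inclusion reads of 70 in GFP ASO, which allows up to 4.29%, and 2 of 243 in U3 ASO.

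OIP5-AS1 showed inclusion in 1 library of each group. The levels were 0.0377, 0 and 0 in GFP ASO and 0, 0 and 0.0580 in U3 ASO, from 4 of 200 and 8 of 183 junction reads. The quasi-binomial adjusted p was 0.844. Skipping reads thus made up nearly all OIP5-AS1 junction reads in both ASO groups and in both siRNA groups of the FUBP1 comparison. Whether inclusion reads of this exon were lost or misplaced in mapping was not tested.

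After FBL depletion the input libraries gave 2 tested lncRNA events, of which 0 were called, 0 had an unadjusted p under 0.05 and 0 had groups without overlap. Over the 5218 events tested, the quasi-binomial test called 0%, 2.3% had an unadjusted p under 0.05 and 13.8% did not overlap. The limma test of the log2 odds of inclusion also called 0 events. The comparison had 2 libraries per group, and the lncRNA events had a median of 12.3 reads per library. The median change (siFBL minus siCtrl) of the 2 events was 0.0181, and that of all events -0.00326.

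The levels in these libraries were erratic. For TUG1 they were 0.0636 and 0 in siCtrl input and 0.813 and 0.0636 in siFBL input, and the high library had 8 inclusion reads and 1 skipping read. For CYTOR they were 0.852 and 0 in siCtrl input and 0 and 0.111 in siFBL input, and the high library had 23 inclusion and 2 skipping reads. In each RNA, then, 1 library stood far from the other 3. The quasi-binomial adjusted p was 0.872 for both. OIP5-AS1 had no event in the input table.

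The amount of each RNA was compared through its junction reads, summed over the listed events of a gene and scaled to RPM. Overlapping events share reads, so the sums are not molecule counts, and in bulk samples fewer cells with an RNA and less RNA per cell cannot be told apart. A limma test with a variance trend was applied to log2 values with a prior count of 1 read, and genes were called at an adjusted p under 0.1.

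After U3 depletion CYTOR and TUG1 rose, and OIP5-AS1 did not pass the test. CYTOR had 2.49, 6.05 and 6.82 RPM in GFP ASO and 16.6, 12.9 and 16.4 in U3 ASO. Every U3 ASO library was higher than every control. The log2 change was 1.68 (SE 0.368, n = 3), with an adjusted p of 0.00144 by limma, and 96.4% of 8548 tested genes had a lower change. TUG1 had 13.9, 16.5 and 9.17 RPM in GFP ASO and 22.1, 25.8 and 22.8 in U3 ASO, also without overlap. Its log2 change was 0.87 (SE 0.242, n = 3; limma adjusted p = 0.00809), and 85.1% of genes had a lower change.

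This comparison had a wide background. Of the 8548 genes, 46.9% were called, 47.4% had an unadjusted p under 0.05 and 49.5% had groups without overlap, so the 2 called of 3 lncRNAs do not stand out by number. The median gene was also higher by 0.28 in U3 ASO on the log2 scale of RPM, so relative to it CYTOR was higher by 1.40 and TUG1 by 0.60. Scaling by the median ratio over genes, which left the median gene at 0.03, gave log2 changes of 1.43 for CYTOR (limma adjusted p = 0.00607) and 0.63 for TUG1 (limma adjusted p = 0.0577). Liver genes moved in the same libraries. Of the 7 with events, 5 fell after U3 depletion (ALB, AFP, APOA1, APOB and TF), 1 rose (TTR, by less than the median gene) and SERPINA1 was not called, and the mean of TF, the transferrin gene, was at 31.6% of the control. The part of these changes in the lncRNA values was not tested. OIP5-AS1 had 4.89, 7.84 and 3.72 RPM in GFP ASO and 5.49, 4.11 and 5.48 in U3 ASO. The groups overlapped, with a log2 change of -0.07 (SE 0.409, n = 3; limma adjusted p = 0.912), which was 0.35 below the median gene.

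The copy of CYTOR moved in the same direction. MIR4435-2HG had 3.20, 5.64 and 9.86 RPM in GFP ASO and 10.3, 16.9 and 10.3 in U3 ASO, which did not overlap. Its log2 change was 1.09 (SE 0.387, n = 3; limma adjusted p = 0.0323). Whether the rise of CYTOR came from its own locus, from that of MIR4435-2HG or from both was not tested. The CYTOR rise was seen in the skipping junction that joins position 87455645 to 87521207, which had 13, 12 and 45 reads in GFP ASO and 89, 62 and 90 in U3 ASO. This junction was counted in 2 of the 4 CYTOR events of the table.

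**Figure D2:**
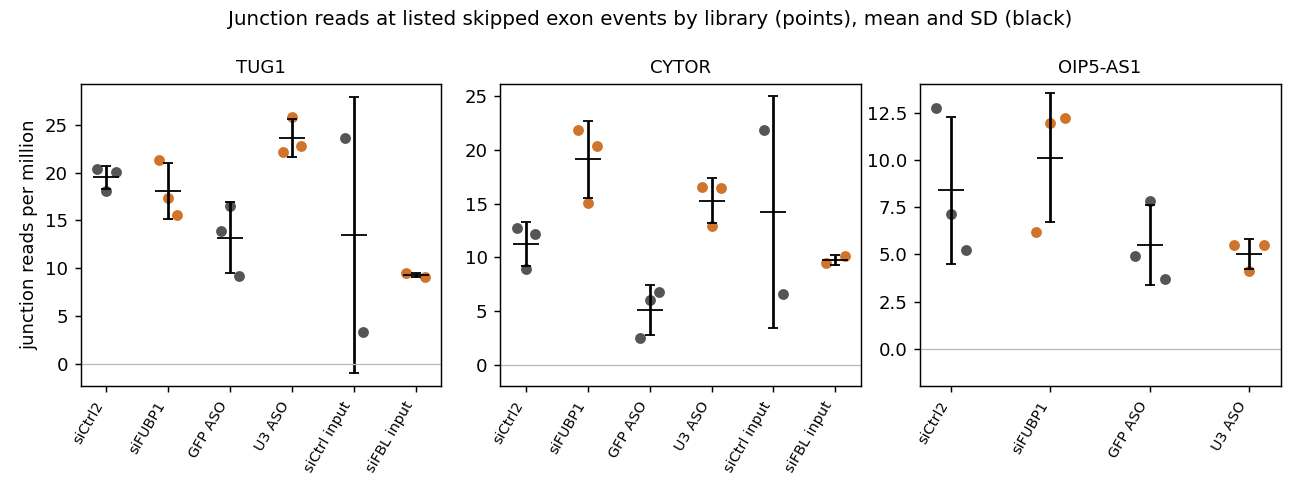
RPM, on the vertical axis, at the listed skipped exon events of TUG1, CYTOR and OIP5-AS1; each point is a library (grey, control; orange, depletion), black lines give mean ± SD of 3 libraries (2 for input groups), and the vertical scales differ. The U3 ASO libraries lie above the GFP ASO libraries for TUG1 and CYTOR and overlap them for OIP5-AS1.

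After FUBP1 depletion 0 of these 3 RNAs were called, whereas 11.9% of 6432 genes were, 21.6% had an unadjusted p under 0.05 and 25.8% had groups without overlap. CYTOR came nearest. It had 12.8, 8.94 and 12.2 RPM in siCtrl2 and 21.9, 15.1 and 20.4 in siFUBP1, without overlap, at a log2 difference of 0.74 (SE 0.385, n = 3; limma adjusted p = 0.276). TUG1 had means of 19.5 ± 1.22 and 18.1 ± 2.95, and OIP5-AS1 of 8.39 ± 3.91 and 10.1 ± 3.42 (SD, n = 3), with limma adjusted p-values of 0.885 and 0.81. In both RNAs the groups overlapped.

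After FBL depletion the tests called 0 of the 2 RNAs with reads, beside 3.73% of 3217 genes called, 13.7% with an unadjusted p under 0.05 and 43.7% without overlap. TUG1 had 23.6 and 3.29 RPM in siCtrl input and 9.46 and 9.12 in siFBL input, and CYTOR had 21.9 and 6.59 against 9.46 and 10.1. For both RNAs the siFBL values lay between the 2 controls, and the limma adjusted p-values were 1 and 0.957.

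The RIP table gave the only values for all 8 RNAs. It deposits, for siCtrl and for siFBL, the authors' mean normalized count over the RIP and input libraries of that condition together. Each condition was normalized on its own and no value per library was used, so the ratios below have no error and no test. They do not separate what went with FUBP1 from what was in the cells.

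The RNAs spanned a wide range of these pooled means, which are not amounts in the cells alone. Mean normalized counts in siCtrl were 238202 for MALAT1, 110691 for NORAD, 26396 for NEAT1, 6741 for KCNQ1OT1, 5123 for TUG1, 4212 for OIP5-AS1, 58.7 for CYTOR and 0.676 for H19. MALAT1 ranked 7th and NORAD 22nd of 28278 genes. Per kilobase of the longest annotated transcript, the mean was 22829 for MALAT1, 20495 for NORAD, 1161 for NEAT1, 685 for TUG1, 474 for OIP5-AS1, 73.5 for KCNQ1OT1, 7.82 for CYTOR and 0.282 for H19. This order depends on the transcript chosen. The longest KCNQ1OT1 transcript has 91667 bases and its canonical one 679, and for CYTOR these lengths are 7512 and 1020. On this scale the nuclear and the cytosolic RNA with the highest pooled means, MALAT1 and NORAD, were close to each other. Each class also held members with far lower means.

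Few reads were assigned to H19. Its mean normalized counts of 0.676 in siCtrl and 0.900 in siFBL correspond to only a few reads over all libraries, since the smallest steps between the means were 0.137 and 0.150. MIR675, the microRNA gene within H19, was listed at 0 in both. IGF2, its imprinted neighbour and a growth factor gene, had means of 11125 and 9659. No ratio was computed for H19, and whether its reads were lost in mapping or counting was not tested.

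**Figure D3:**
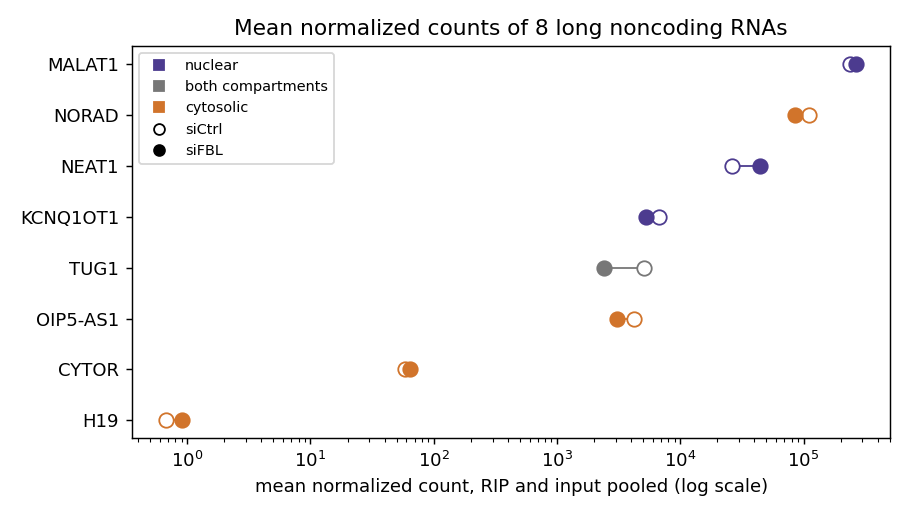
Authors' mean normalized count of each RNA over RIP and input libraries, on a log axis, in siCtrl (open circles) and siFBL (filled circles); purple marks nuclear, grey both compartments and orange cytosolic RNAs. The RNAs run from H19 at 0.676 to MALAT1 at 238202 in siCtrl, and both classes are found near the top.

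Between the conditions, TUG1 and NEAT1 lay furthest apart. The siFBL mean over the siCtrl mean was 0.466 for TUG1 (2385 over 5123) and 1.68 for NEAT1 (44386 over 26396). Among 12057 genes with a mean of at least 50 in either condition the median ratio was 0.863, with 0.541 and 1.34 as the 5th and 95th percentiles. Only 2.26% of those genes had a lower ratio than TUG1, and 98.3% had a lower ratio than NEAT1. High ratios were not particular to NEAT1. The listed liver genes all lay above the median gene, from 0.936 for TTR to 1.49 for AFP, and AFP was above 97.1% of genes. The NEAT1 mean moved from rank 177 to rank 80 of all genes.

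The other ratios were within the central range. MALAT1 was at 1.12 and CYTOR at 1.10, above 86.5% and 85.0% of genes. KCNQ1OT1 was at 0.784, NORAD at 0.774 and OIP5-AS1 at 0.733, above 33.5%, 31.7% and 24.6% of genes. The nuclear RNAs had a median ratio of 1.12, with 2 of 3 above the median gene, and the cytosolic RNAs with a ratio had a median of 0.774, with 1 of 3 above it. The classes overlapped, since CYTOR lay above KCNQ1OT1. CYTOR had low mean normalized counts, 58.7 in siCtrl and 64.6 in siFBL, and may hold reads of its copy MIR4435-2HG. The copy itself was at 0.760, lower than CYTOR, and the part of its reads in the CYTOR ratio was not tested. NORAD at 0.774 and OIP5-AS1 at 0.733 lay below the lowest nuclear ratio, 0.784 for KCNQ1OT1. The ratios have no error, so this order does not show a separation of the classes. With 3 RNAs in each class no test was made. A further 30 lncRNAs listed for comparison gave 19 ratios from 0.509 to 1.45 with a median of 0.793, and 14 of them were below the median gene.

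**Figure D4:**
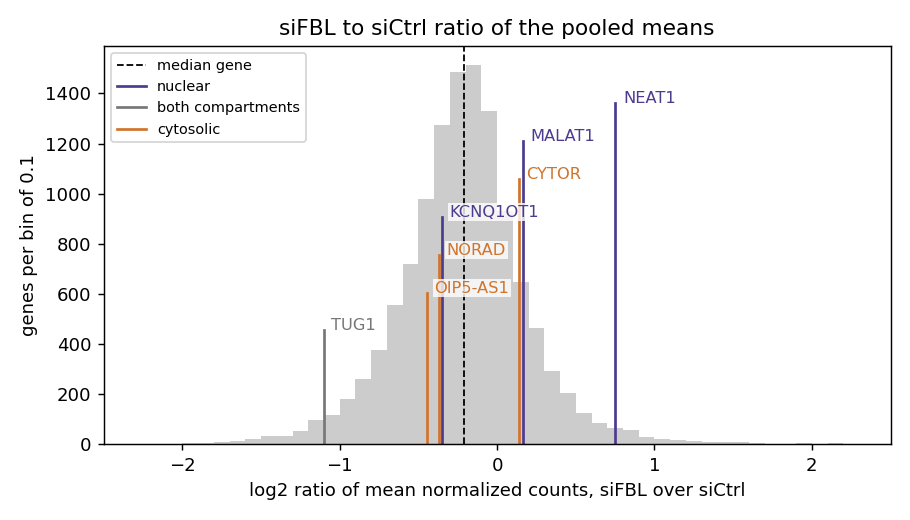
Distribution over 12057 genes of the log2 ratio of mean normalized counts, siFBL over siCtrl, in bins of 0.1; the dashed line is the median gene and coloured lines are the lncRNAs, whose heights only separate the labels. TUG1 lies in the lower tail and NEAT1 in the upper tail, and the other 5 lncRNAs with a ratio lie between them.

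The listed lncRNAs were also examined for splicing. After U3 depletion 20 of their events were tested and 2 were called, beside 0.226% of all events, both higher and both in ZFAS1, a host gene of small nucleolar RNAs. Under limma on the log2 odds of inclusion 0 events of the whole table were called, these 2 included. Its exon at chr20:49280903-49280964 went from 0.477 ± 0.0776 to 0.613 ± 0.0426 (SD, n = 3; quasi-binomial adjusted p = 0.0591), and the exon at chr20:49280485-49280570 from 0.809 ± 0.0892 to 0.910 ± 0.0249 (adjusted p = 0.0685). After FUBP1 depletion 10 were tested and 0 called, with 2 at an unadjusted p under 0.05, beside 4.55% of all events. These 2 were in ZFAS1 (0.280 ± 0.0361 and 0.400 ± 0.126, SD, n = 3) and GAS5 (0.936 ± 0.110 and 1 ± 0), also a small nucleolar RNA host, each at a quasi-binomial adjusted p of 0.812. After FBL depletion 4 were tested, with 0 called and 0 at an unadjusted p under 0.05, where GAS5 and ZFAS1 had the smallest p. By junction reads, 4 of 7 listed lncRNAs rose after U3 depletion and 0 fell, near the 46.9% called among all genes, whose median was higher by 0.28. ZFAS1 rose by 0.95 (SE 0.102), GAS5 by 0.88 (SE 0.104) and LINC-PINT by 3.33 (SE 0.954) on the log2 scale of RPM, with limma adjusted p-values of 9.39e-07, 3.21e-06 and 0.00991, and MIR4435-2HG was the other. LINC-PINT had only 0, 17 and 6 junction reads in GFP ASO and 58, 46 and 41 in U3 ASO, so the size of its change is uncertain. After FUBP1 depletion 1 of 6 rose, LINC-PINT, beside 11.9% called among all genes, and after FBL depletion 0 of 2 were called, beside 3.73%.

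The proteins that work with these RNAs, and neighbouring genes of their loci, formed a list of 21 genes. The quasi-binomial test called 0 of their 53, 86 and 20 tested events after FUBP1, U3 and FBL depletion. An unadjusted p under 0.05 was found for 2, 5 and 0 of them, beside 4.55%, 4.18% and 2.3% of all events. NONO, a core protein of NEAT1 paraspeckles, had the smallest p after FUBP1 depletion, at its exon chrX:71284397-71284453. The inclusion level there averaged 0.894 ± 0.0571 with siCtrl2 and 0.755 ± 0.0848 with siFUBP1 (SD, n = 3), without overlap, at an adjusted p of 0.135. Next was SRRM2, a scaffold of the speckles that hold MALAT1, with 0.640 ± 0.106 and 0.764 ± 0.0694 (adjusted p = 0.812). After U3 depletion the smallest p belonged to SON, the other speckle scaffold, with 0.0141 ± 0.00486 for GFP ASO and 0.0678 ± 0.0350 for U3 ASO libraries (SD, n = 3; adjusted p = 0.14). After FBL depletion SRRM2 and NONO had the smallest p-values, both at an adjusted p of 0.872. Junction reads of the partner genes rose in 1 and fell in 1 of 15 after FUBP1 depletion, where 11.9% of all genes were called. They rose in 5 and fell in 4 of 16 after U3 depletion, where 46.9% were called, and were called in 0 of 12 after FBL depletion, where 3.73% were.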

How the data were processed

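Per the labels and the study's methods, the authors trimmed reads with Cutadapt, aligned them to hg38 with HISAT2, counted reads per gene with HTSeq (the labels also name featureCounts), compared RIP with input in DESeq2, and listed skipped exon events with rMATS; versions and the annotation release are not given in the sources used here. The deposited event tables hold whole junction reads as a list with 1 number per library. The deposited mean normalized count of each condition was treated as a score. Columns with the authors' own comparisons (log2 fold change of RIP over input with its standard error and p-values; rMATS p-value, FDR and inclusion difference) were not used, so RIP enrichment is not reported, and neither were 6 columns of inclusion levels per library. The totals of junction reads set the precision, and intervals and limits cover counting error only.

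Inclusion and skipping reads were fitted in R 4.3.3 by a quasi-binomial model whose dispersion was moderated over all events with limma 3.58.1 (trend on read information, prior from events with an information of at least 5), and reads per gene with limma and a variance trend. Both tests are two-sided, adjusted over all events or genes of a table. Each depletion was fitted with its own control. Both methods were run on simulated data, with a spread taken from the fitted model for events and fixed for genes. Such data do not show the error rates of the tests on the real libraries. Events were named by a rule: per lncRNA and table the event with the most reads and any with an unadjusted p under 0.05, and from the other lists every called event or else the 2 smallest p-values. Other events of TUG1 and CYTOR are given beside them. Of the items this rule names, 1 event and 1 exon sequence are not reported here. Gene positions and transcripts come from GENCODE and sequences from hg38. The 8 RNAs and the gene lists were chosen with earlier results of these data known. Alternatives were other read minimums, tests, priors and scalings, and leaving out each library.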

Additional observations from a re-analysis of the deposited data

How the results depend on the processing

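The number of lncRNA events called was 0 in the 3 comparisons under every alternative run, and the number of lncRNAs called by junction reads stayed at 0 after FUBP1 depletion, 2 after U3 depletion and 0 after FBL depletion. Leaving out a library in turn also gave 0, 2 and 0. For FBL depletion these zeros carry little, since all events together gave 0 calls in every setting, no lncRNA event was tested with a minimum of 20 reads, and neither an event nor a gene of the lncRNAs was tested without the first siCtrl input library. Leaving out a library there left a group of 1, which was assumed to vary like the others. Under U3 depletion the log2 change ranged from 1.23 to 1.94 for CYTOR (limma adjusted p from 0.000982 to 0.011) and from 0.63 to 1.06 for TUG1 (0.00352 to 0.0577). Directions turned only in values that were not called. By the event with the most reads TUG1 was at 0.24 on the log2 scale after FUBP1 depletion. OIP5-AS1 after U3 depletion lay between -0.31 and 0.22 when a library was left out, and above 0 without the second GFP ASO library (0.22) or the second U3 ASO library (0.07). TUG1 after FBL depletion was at -0.11 with a prior count of 5, and between -1.26 and 0.024 when a library was left out. Of the inclusion changes after U3 depletion, those of the main TUG1 event lay between -0.0330 and 0.0410, of the TUG1 event starting downstream at 30972924 between -0.114 and 0.110, of CYTOR between -0.203 and 0.0108 and of OIP5-AS1 between -0.0126 and 0.0193 when a library was left out. After FUBP1 depletion the TUG1 event with the later start was between -0.0365 and 0.463. Over all events the calls ranged from 0 to 32 after FUBP1 depletion (32 as reported) and from 0 to 66 after U3 depletion (68 as reported), and the lowest came from limma on the log2 odds. After FBL depletion they were 0 throughout. A version of that limma test with the variance trend on reads, chosen after seeing the data, called 6, 0 and 0 events. Over all genes the calls ranged from 493 to 804 (765 as reported), 3188 to 4033 (4010) and 7 to 171 (120), the 7 without the first siFBL input library, beside 18 without the second siFBL input library, 53 without the second siCtrl input library and 493 without the first siCtrl2 library. Event calls fell to 21 and 20 without the second siCtrl2 or second siFUBP1 library, and to 35, 42, 38 and 33 without the second or the third GFP ASO or the second or the third U3 ASO library. No paired analysis was possible because the lists of reads carry no library number. Few reads per event, 12.3 in the median for the FBL comparison, limit the inclusion levels.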
